A study of Mus musculus with 11 samples.

Results

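Liver genes were followed in the thymic epithelium of NOD mice, a strain that develops autoimmune diabetes, across 3 genotypes of Aire. The set was 30 of the 56691 genes in the count table: the hepatocyte's secreted proteins and enzymes, major urinary proteins, and 3 hepatic transcription factors. The genes were given as a list of symbols, drawn up with earlier results of these data known, and the rule that finds them uses no measured value. All 30 symbols matched a row, each in a single Ensembl gene. The 11 RNA-seq libraries came from mice aged 4 to 8 weeks, and all groups shared the NOD background. There were 3 libraries with both Aire copies wild type (WT/WT), 5 with 1 copy of the R249C allele (WT/R249C) and 3 with both copies R249C (R249C/R249C). R249C is an arginine-to-cysteine change in the Aire protein. Thymi were digested, CD45-expressing cells were removed with magnetic beads, the remainder was sorted on EpCAM, and the libraries were made with a low-input kit. Batch A, as the labels name it, held 1 WT/WT library, 3 WT/R249C libraries and all 3 R249C/R249C libraries. Batch B held 2 WT/WT and 2 WT/R249C libraries. The 2 WT/R249C libraries of batch B (replicates 4 and 5) are WT/R249C by title and by library name. Their genotype field reads R249C/R249C, and they were grouped by title. The titles call the libraries biological replicates, and nothing states how many mice a library pools, so the p-values below measure the spread between these libraries.

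The liver makes most of the proteins of blood plasma: albumin, the fibrinogen chains, apolipoproteins, protease inhibitors and acute-phase proteins. Its gene programme is driven by a network of transcription factors, among them HNF4, FOXA and C/EBP proteins. Medullary thymic epithelial cells express genes of many peripheral tissues, liver included, so that developing T cells meet those antigens. Aire is the transcriptional regulator best known for this, and each such gene is expressed in a small part of the medullary cells at any time. Some medullary cells also take on features of peripheral cell types, with the transcription factors of those types. Bulk libraries average over all sorted cells, so fewer expressing cells and less RNA per cell cannot be told apart in what follows.

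The RefSeq promoter table of mouse build GRCm38.p6 held entries for 24 of the 30 genes, with 28 promoters, each running from 250 bases before to 50 bases after the start. The 150 bases before the start are shown for 5 genes that the results turn on: the oppositely oriented fibrinogen neighbours Fga and Fgb, albumin as the defining hepatocyte product, and the apolipoprotein genes Apoa1 and Apoh. Fga lies at chr3:83026003-83026152 on the + strand, Fgb at chr3:83049864-83050013 on the - strand, Alb at chr5:90460720-90460869 on the + strand, Apoa1 at chr9:46228480-46228629 on the + strand and Apoh at chr11:108395147-108395296 on the + strand. Each is written 5′ to 3′ on the gene's strand, and capitals mark the letters searched for on either strand: TGTTTAC or TGTTTGC for FOXA and TTGCNNAA for C/EBP.
Fga: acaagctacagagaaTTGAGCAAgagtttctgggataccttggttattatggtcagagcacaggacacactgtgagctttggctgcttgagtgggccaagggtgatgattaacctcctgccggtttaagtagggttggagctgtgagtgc
Fgb: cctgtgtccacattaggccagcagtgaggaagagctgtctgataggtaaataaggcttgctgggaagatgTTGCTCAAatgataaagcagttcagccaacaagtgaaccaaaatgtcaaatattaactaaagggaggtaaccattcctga
Alb: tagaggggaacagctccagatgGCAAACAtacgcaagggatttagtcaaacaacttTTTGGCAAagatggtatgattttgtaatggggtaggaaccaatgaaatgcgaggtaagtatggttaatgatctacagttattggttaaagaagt
Apoa1: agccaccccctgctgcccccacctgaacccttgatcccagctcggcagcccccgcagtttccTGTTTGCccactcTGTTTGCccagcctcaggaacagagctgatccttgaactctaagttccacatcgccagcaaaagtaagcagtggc
Apoh: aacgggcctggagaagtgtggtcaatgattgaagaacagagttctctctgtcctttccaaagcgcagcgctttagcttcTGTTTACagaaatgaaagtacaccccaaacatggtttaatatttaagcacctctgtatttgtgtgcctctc

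Alb carries a FOXA and a C/EBP match in these bases, Fga and Fgb a C/EBP match each, Apoa1 2 FOXA matches and Apoh a FOXA match; no match overlaps another there. Over the full 300-base promoters, FOXA letters were in 9 of the 28 liver promoters (32.1%) against 8.48% of all 32851 promoters of the table, and C/EBP letters in 9 of 28 (32.1%) against 10.8%. The TATA box letters TATAAA, searched on the gene's strand at any position of the promoter, were in 7 of 28 (25%) against 8.32%. The HNF4 letters CAAAGTCC were in 0 of 28 and in 1.42% of all promoters. The liver promoters were also poorer in CpG, with a median of 4 per promoter against 7 over all promoters, and 75% of them had 5 or fewer against 43.6%. These matches describe the letters only.

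Library totals ran from 60560348 to 182319976 counts, so 3 counts, the limit that a count of 0 allows, correspond to between 0.0165 and 0.0495 CPM (counts per gene divided by the total of the library and rescaled) depending on the library. Reads carry no molecular identifiers, so this limit covers counting error only. The epithelial gene Epcam was between 355.0 and 521 CPM and the leukocyte gene Ptprc (CD45) between 0.217 and 26.2 CPM. Aire RNA was between 174 and 858 CPM with all 3 genotypes overlapping; R249C changes the protein, so the level of Aire RNA does not check the genotype labels. WT/R249C replicate 3 had the smallest total and the fewest genes with a count (22101, against up to 31180), and its correlations of log2(CPM + 1) with the other libraries, from 0.842 to 0.878, were the lowest as a set; the highest between any pair was 0.969.

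**Figure D1:**
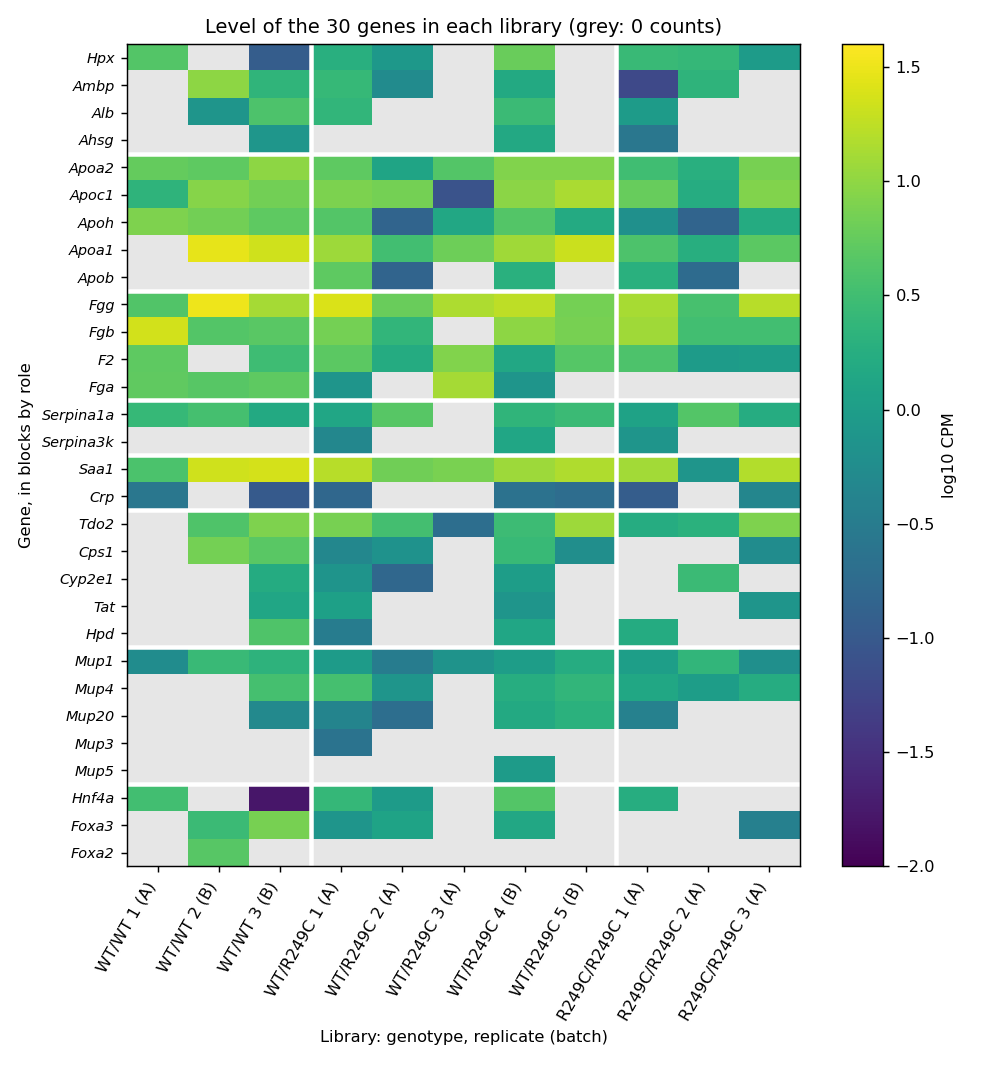
Level of the 30 liver genes (rows, in blocks by role) in the 11 libraries (columns, by genotype, replicate and batch), as log10 CPM on the colour scale, with 0 counts in grey. A gene changes between coloured and grey within each genotype, and 6 genes are coloured in all 11 libraries.

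Liver transcripts were present in every library, but which ones differed from library to library. At least 1 count was found for 13, 16 and 25 of the 30 genes in WT/WT replicates 1, 2 and 3. The number was 27, 20, 10, 28 and 15 in WT/R249C replicates 1 to 5, and 22, 16 and 17 in the R249C/R249C libraries. The means were 18 ± 6.2 (SD, n = 3), 20 ± 7.7 (SD, n = 5) and 18.3 ± 3.2 (SD, n = 3), so the genotypes overlapped throughout. Thinned to the smallest total, the numbers hardly moved: WT/WT replicate 3 kept an expected 24.7 and no other library lost as much. Without WT/R249C replicate 3 the WT/R249C mean was 22.5 ± 6.1 (SD, n = 4). The number of genes with a count in all was 31180 beside 27 liver genes in WT/R249C replicate 1, 28931 beside the highest number, 28, in WT/R249C replicate 4, 25129 beside 13 in WT/WT replicate 1, and 22101 beside the lowest, 10, in WT/R249C replicate 3.

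Only 6 of the 30 genes (Apoa2, Apoc1, Apoh, Fgg, Mup1 and Saa1) had counts in all 11 libraries, 20%, against 41.55% of the 40154 genes with any count. Without WT/R249C replicate 3 there were 8, with Fgb and Serpina1a added. Foxa2, Mup3 and Mup5 were found in a single library each. Where a liver gene was found, its count was rarely between 1 and 9. Reads carry no molecular identifiers, so these counts do not tell how many molecules were sampled. Of the 330 values (30 genes in 11 libraries), 121 were 0 (36.67%), 3 lay between 1 and 9 counts (0.909%) and 161 were 100 counts or more (48.79%). Over all genes with a count, 33.35% of values were 0, 9.61% lay between 1 and 9 counts and 44.31% were 100 or more.

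By genotype, 26 liver genes had a count in some WT/WT library, 29 in some WT/R249C library and 26 in some R249C/R249C library. Serpina3k, Apob, Mup3 and Mup5 were at 0 in all 3 WT/WT libraries, and Fga, Foxa2, Mup3 and Mup5 in all 3 R249C/R249C libraries. In WT/R249C only Foxa2 was at 0 throughout, in a group of 5 libraries rather than 3.

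The summed level of the 30 genes was 67.5, 149 and 134 CPM in WT/WT, 115, 42.3, 56.4, 113 and 99.3 CPM in WT/R249C, and 71.96, 31.4 and 73.2 CPM in R249C/R249C. The means were 117 ± 43.4 (SD, n = 3), 85.2 ± 33.7 (SD, n = 5) and 58.9 ± 23.8 CPM (SD, n = 3), with overlap between each pair of genotypes; without WT/R249C replicate 3 the WT/R249C mean was 92.4 ± 34.2 CPM (SD, n = 4). The order follows the batches as well: the 4 batch B libraries lay between 99.3 and 149 CPM, and of the 7 batch A libraries only WT/R249C replicate 1 reached that range. Within batch A the WT/WT library, at 67.5 CPM, lay inside the range of each mutant genotype. Within batch B the WT/WT libraries, at 149 and 134 CPM, lay above WT/R249C replicates 4 and 5, at 113 and 99.3 CPM. The labels of replicates 4 and 5 are contradictory. The part of batch in this order was not tested. No gene took more than 33.03% of the summed counts in any library.

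**Figure D2:**
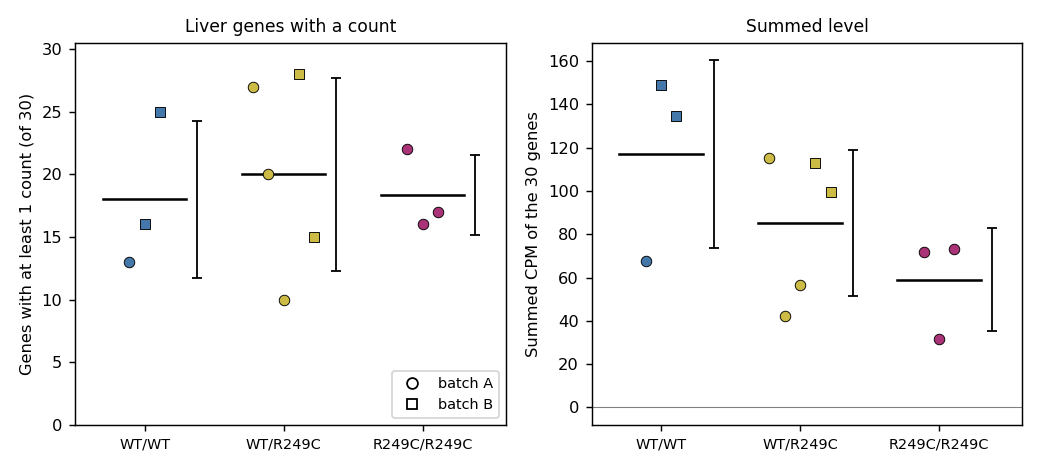
Number of the 30 liver genes with at least 1 count (left) and their summed CPM (right) in each library by genotype, circles for batch A and squares for batch B, with the mean (line) and SD (bar). The numbers run from 10 to 28 and overlap between genotypes, and the 2 WT/WT squares are the 2 highest sums.

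Fibrinogen, the precursor of the fibrin clot, is built from 3 chains encoded by the adjacent genes Fgg, Fga and Fgb on chromosome 3. Fga, the alpha chain, was at 5.25, 4.63 and 5.12 CPM in the WT/WT libraries. It was at 0.760, 0, 13.1, 0.758 and 0 CPM in WT/R249C, and at 0 in all 3 R249C/R249C libraries. The WT/WT libraries thus lay close together (5.00 ± 0.33 CPM, SD, n = 3), each above every R249C/R249C library, while WT/R249C spanned the whole range. Without WT/R249C replicate 3, the 4 remaining WT/R249C libraries ran from 0 to 0.760 CPM, also below every WT/WT library. Within batch A the WT/WT library was at 5.25 CPM.
Fgb, the beta chain, was at 22.3, 4.37 and 4.80 CPM in WT/WT, 6.93, 2.38, 0, 9.69 and 7.34 CPM in WT/R249C, and 12.4, 3.21 and 3.24 CPM in R249C/R249C. Fgg, the gamma chain, was at 4.22, 32.6 and 13.1 CPM in WT/WT, 25.3, 6.07, 14.3, 17.5 and 7.11 CPM in WT/R249C, and 13.7, 3.605 and 16.4 CPM in R249C/R249C. Both overlapped between the genotypes, and neither followed Fga.

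Fgg had counts in 11 libraries, Fgb in 10 and Fga in 6. All 3 chains were found together in 5 libraries, the 3 WT/WT libraries and WT/R249C replicates 1 and 4. WT/R249C replicate 3 had the highest Fga level of all libraries and no Fgb count. F2, which encodes prothrombin, was found in 10 libraries, at up to 8.19 CPM in WT/R249C replicate 3 and up to 5.17 CPM in the others, and was at 0 in WT/WT replicate 2.

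Apoh, which encodes beta-2-glycoprotein I, a phospholipid-binding plasma protein, was at 7.99, 6.77 and 5.06 CPM in WT/WT. It was at 4.32, 0.143, 1.44, 4.32 and 1.59 CPM in WT/R249C and at 0.641, 0.145 and 1.66 CPM in R249C/R249C. Every WT/WT library lay above every library of either mutant genotype. Within batch A this held for both mutant genotypes; batch B has no R249C/R249C library, and there it held for WT/R249C replicates 4 and 5, whose labels are contradictory.
The other apolipoprotein genes overlapped. Apoa1, the main protein of high-density lipoprotein, was at 0, 29.5 and 21.9 CPM in WT/WT, 11.9, 3.19, 6.49, 12.3 and 20.4 CPM in WT/R249C, and 3.96, 1.84 and 5.00 CPM in R249C/R249C. Its R249C/R249C libraries were low, but WT/WT replicate 1 had no count at all. The other high-density lipoprotein gene, Apoa2, ranged from 1.26 to 9.78 CPM over the 11 libraries. Apoc1 ranged from 0.0826 to 13.9 CPM, with its lowest value in WT/R249C replicate 3.

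Apob encodes the backbone protein of low-density lipoprotein. It was at 0 in all 3 WT/WT libraries, at 5.11, 0.143, 0, 1.95 and 0 CPM in WT/R249C, and at 1.94, 0.184 and 0 CPM in R249C/R249C. Each mutant genotype thus held a library at 0 as well and overlapped WT/WT.

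**Figure D3:**
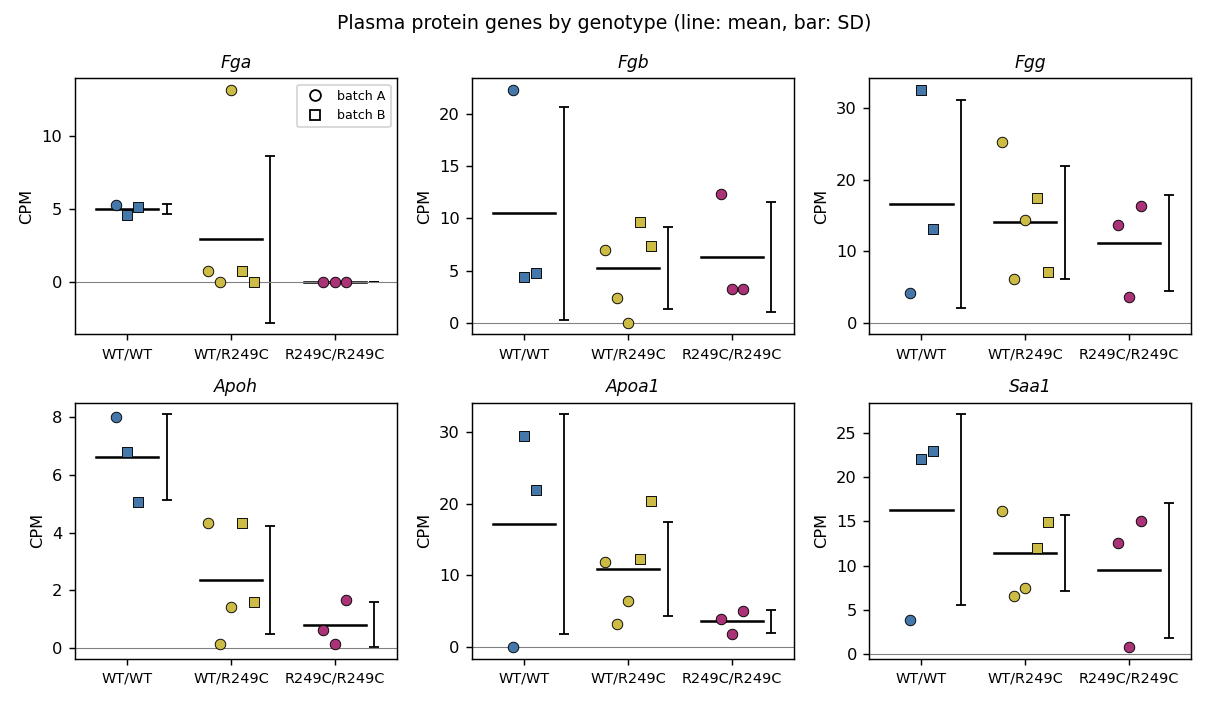
CPM of 6 plasma protein genes in each library by genotype, circles for batch A and squares for batch B, with the mean (line) and SD (bar). Fga is at 0 in the 3 R249C/R249C libraries and between 4.63 and 5.25 CPM in WT/WT, Apoh is highest in the WT/WT libraries, and the other 4 genes overlap.

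Albumin itself was a minority finding. Alb was at 0, 0.753 and 3.89 CPM in WT/WT, at 2.31 and 2.86 CPM in WT/R249C replicates 1 and 4 and 0 in the other 3, and at 0.961, 0 and 0 CPM in R249C/R249C. Hpx, the haem scavenger hemopexin, was found in 8 libraries at up to 5.99 CPM. Ambp, the precursor of alpha-1-microglobulin and bikunin, was found in 7, with 9.61 CPM in WT/WT replicate 2 and at most 2.55 CPM elsewhere. Ahsg, the mineral-binding carrier fetuin-A, was found in 3 libraries, 1 of each genotype, at 0.768, 1.5 and 0.267 CPM.

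The protease inhibitor gene Serpina1a, an alpha-1-antitrypsin gene, was at 2.55, 3.49 and 1.53 CPM in WT/WT, 1.34, 4.69, 0, 2.29 and 2.83 CPM in WT/R249C, and 1.19, 4.36 and 1.71 CPM in R249C/R249C, so the genotypes overlapped. Of its 50-base transcript windows, 67.4% are also found in other genes, among them its 4 paralogs Serpina1b to Serpina1e, so the split of reads between the copies is uncertain. In WT/R249C replicate 3 Serpina1a and these 4 paralogs, named after their values were seen, were all at 0. Serpina3k was found in 3 libraries (0.464, 1.33 and 0.747 CPM), and 14% of its windows are shared with other genes.

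Among the acute-phase genes, Saa1, which encodes the serum amyloid A protein that rises in inflammation, was found in every library. It was at 3.85, 22.1 and 23.02 CPM in WT/WT, 16.1, 6.52, 7.497, 12 and 14.9 CPM in WT/R249C, and 12.5, 0.754 and 15.1 CPM in R249C/R249C. The lowest value was in an R249C/R249C library and the next lowest in a WT/WT library, so the groups overlapped. Crp, the C-reactive protein gene, was found in 7 libraries and never above 0.446 CPM.

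Of the 5 enzyme genes, Tdo2, which encodes the first enzyme of tryptophan breakdown, was found in 10 libraries at up to 11.6 CPM and was at 0 in WT/WT replicate 1. That library had no count for any of the 5. Cps1, the enzyme that brings ammonia into the urea cycle, was at 0, 7.14 and 4.71 CPM in WT/WT, 0.457, 0.684, 0, 2.64 and 0.602 CPM in WT/R249C, and 0, 0 and 0.566 CPM in R249C/R249C. It was found in all 4 batch B libraries and in 3 of the 7 batch A libraries. Its 2 WT/WT libraries with counts are both of batch B, where they lay above WT/R249C replicates 4 and 5 (2.64 and 0.602 CPM). The part of batch in these values was not tested. Cyp2e1, a cytochrome P450, was found in 5 libraries and in each genotype. Tat and Hpd, both enzymes of tyrosine breakdown, were each found in 4 libraries, and in WT/WT replicate 3, WT/R249C replicate 1 and WT/R249C replicate 4 together.

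Major urinary proteins are small lipocalins that carry pheromones, many of them made in liver. Their genes form a cluster on chromosome 4 that includes near-identical copies. The counts do not tell which copies are liver products. Mup1 was at 0.559, 2.75 and 2.10 CPM in WT/WT, 0.957, 0.329, 0.71, 1.01 and 1.67 CPM in WT/R249C, and 1.05, 2.31 and 0.620 CPM in R249C/R249C. It was present in all 11 libraries with overlapping genotypes. Of its 50-base windows, 94.8% are shared with other genes, so the split of reads between the copies is uncertain. The 15 other Mup genes with 78.1% to 100% of windows shared were likewise in all 11 libraries. Their counts relative to Mup1 varied between libraries, from 0.593 to 1.38 for Mup9, from 0.509 to 1.51 for Mup2 and from 0.678 to 0.907 for Mup12, the narrowest of these ranges.

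The less shared copies were sparser. Mup4 (12.4% of windows shared) was found in 8 libraries at up to 3.43 CPM, and Mup20 (50.5%), which encodes the pheromone darcin, in 6 at up to 2.01 CPM. Mup3 (15.6%) was found in WT/R249C replicate 1 alone, at 0.232 CPM, and Mup5 (17.1%) in WT/R249C replicate 4 alone, at 0.960 CPM. Outside the listed genes, Mup6 (4.33%) was found in 9 libraries and Mup21 (19.3%), named after its values were seen, in 1. None of the 6 Mup genes with under 75% of windows shared was in all 11 libraries, and all 16 above that share were, a split chosen after the values were seen.

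**Figure D4:**
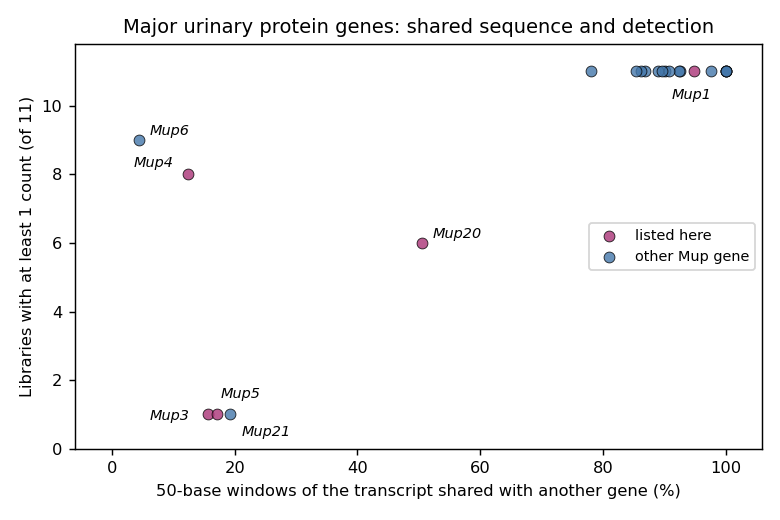
Each point is a Mup gene, with the share of its 50-base transcript windows found in another gene (x axis, percent) and the number of the 11 libraries with at least 1 count (y axis). Mup1 and the 15 other genes with 78.1% or more shared windows sit at 11 libraries, and the 6 less shared genes between 1 and 9.

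The 3 transcription factors were sparse. Hnf4a, the nuclear receptor that acts as a master regulator of hepatocyte and enterocyte genes, was at 3.29, 0 and 0.0165 CPM in WT/WT, the last being 3 counts. It was at 2.47, 0.954, 0, 4.27 and 0 CPM in WT/R249C and at 1.75, 0 and 0 CPM in R249C/R249C. Each genotype thus held libraries with and without it. Foxa3, a forkhead factor of liver and gut endoderm, was at 0, 2.85 and 7.29 CPM in WT/WT, 0.753, 1.24, 0, 1.46 and 0 CPM in WT/R249C, and 0, 0 and 0.370 CPM in R249C/R249C. Its 2 highest values were the 2 WT/WT libraries of batch B, and the WT/WT library of batch A was at 0. Foxa2, the related pioneer factor, was found in WT/WT replicate 2 alone, at 4.59 CPM (567 counts).

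Some genes were found in the same libraries as these factors. The 6 libraries with Hnf4a all had Hpx, which was in 8, and the 4 libraries with Hpd all had Hnf4a. Alb and Apob, each in 5 libraries, shared 4 with Hnf4a. The 6 libraries with Foxa3 all had Cps1, which was in 7. Hnf4a and Foxa3 themselves shared 4 libraries. All genes here share the same libraries, which differ in how many genes have a count, so these overlaps are given as counts with no test.

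Some hepatic regulators outside the 30 genes were found in every library. Tbx3, a T-box factor, was at 87.3, 61.9 and 90.1 CPM in WT/WT, 34.9, 33.2, 153, 96.1 and 48.1 CPM in WT/R249C, and 72.5, 37.3 and 54.2 CPM in R249C/R249C. The groups overlapped, and WT/R249C held both the lowest and the highest value. Cebpa, a C/EBP factor, kept between 30.4 and 59.2 CPM. Hnf4g, the paralog of Hnf4a that is also an enterocyte gene, was found in all 11 libraries, from 0.264 CPM in WT/R249C replicate 3 to 31.2 CPM in WT/WT replicate 2. Of a list of 20 further regulators, 5 were in all 11 libraries and 15 in some of them.

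**Figure D5:**
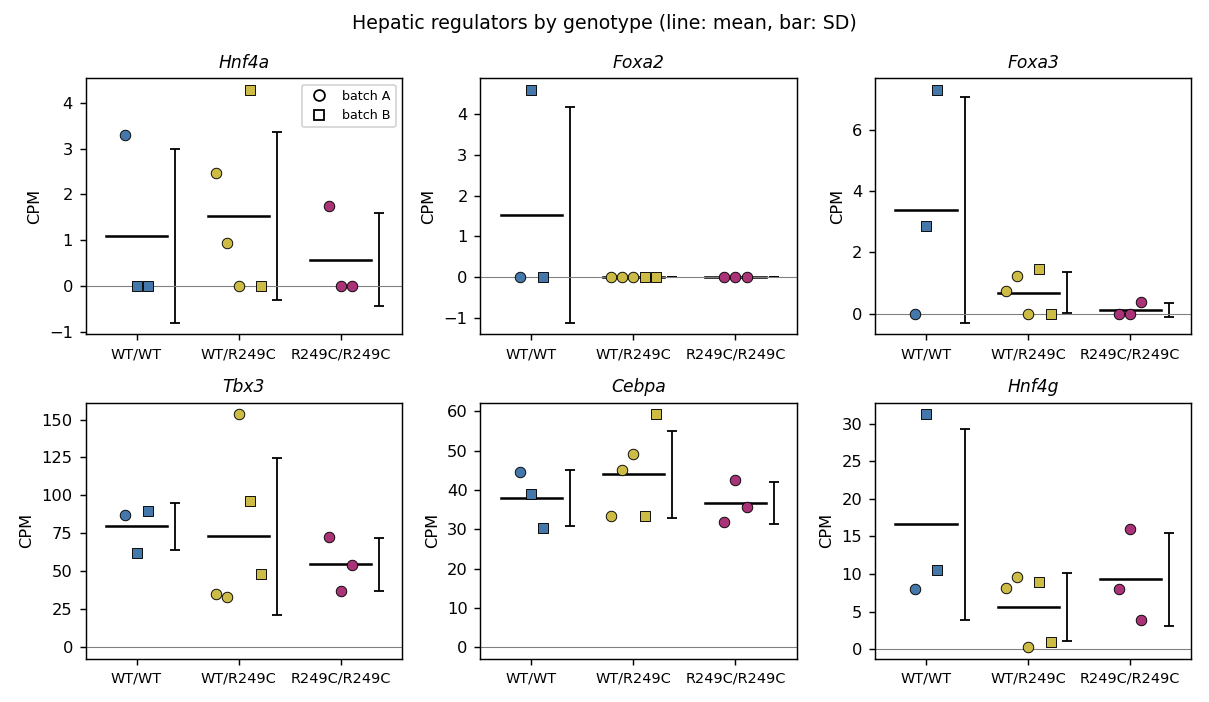
CPM of 6 hepatic regulators in each library by genotype, circles for batch A and squares for batch B, with the mean (line) and SD (bar). Hnf4a, Foxa2 and Foxa3 include libraries at 0, while Tbx3, Cebpa and Hnf4g have counts in all 11 libraries, and each gene overlaps between genotypes.

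The first comparison asked how liver genes differed between R249C/R249C and WT/WT. In the edgeR quasi-likelihood model, fitted to the 11 libraries with a term for batch, 27 of the 30 genes passed the filter on low counts; Mup3, Mup5 and Foxa2 did not. None of the 27 was called at an adjusted p under 0.05, and neither was any of the 29569 genes tested (0.0%). At an unadjusted p under 0.05 there was 1 liver gene, Fga, beside 3.45% of all genes. DESeq2 called 1 liver gene, Fga, lower, beside 1.77% of all genes in either direction and 1.14% lower, and limma voom called 0. The fitted log2 fold change was positive for 17 of 27 liver genes (49.1% of all genes) with a median of 0.39, or 0.39 with Fga, Apob and Serpina3k at their bounds, while the median of all genes was -0.02. That direction depends on the batch term: without it 7 of 27 were positive and the median was -0.69, and in batch A alone, against the WT/WT library that lacks 17 of the 30 genes, the median was 3.86.

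In this comparison 2 of the 30 genes did not overlap between genotypes, Apoh and Fga, both lower in R249C/R249C; over all genes tested, 4.4% were lower and 3.16% higher without overlap. Fga had 0 counts over the R249C/R249C libraries and 2059 over WT/WT. Against the floor of 3 counts over the group it was at least 514-fold lower in pooled counts, a bound for counting error only. In edgeR its unadjusted p was 0.0174 and its adjusted p was 1. Its adjusted p was 3.67e-14 in DESeq2 and 0.548 in limma voom. The fitted log2 fold change was -14.1 in edgeR, -27.7 in DESeq2 and -10.3 in limma voom. With a group at 0 its size is not determined, so the DESeq2 p is no measure of strength. With WT/R249C replicates 4 and 5 counted as R249C/R249C, Fga was no longer at 0 in that group, since replicate 4 held it at 0.758 CPM.

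Apoh had a log2 fold change of -2.88 (SE 1.44, interval -6.13 to 0.37, edgeR adjusted p = 1) in R249C/R249C against WT/WT. Its values did not overlap, but its interval at 95% reached 0. Apob, at 0 in WT/WT, was at least 105.6-fold higher in the pooled counts of R249C/R249C, with counts in 2 of 3 libraries (edgeR adjusted p = 1). Serpina3k, also at 0 in WT/WT, was at least 37.4-fold higher in pooled counts, from 1 library of 3 (edgeR adjusted p = 1). Libraries of R249C/R249C at 0 for either gene did not differ from WT/WT.

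Markers of other cell types were read in the same fit, which includes the batch term. The summed level of 10 B-lineage markers was 1620 to 3257 CPM in WT/WT, 281 to 635 CPM in WT/R249C and 473 to 801 CPM in R249C/R249C, and all 10 fitted changes were negative against WT/WT in each mutant genotype, with 0 called. Of the 10 markers, 9 to 10 had a count in the WT/WT libraries, 6 to 9 in WT/R249C and 7 to 9 in R249C/R249C. Igkc, an immunoglobulin light chain, was at 734 to 1863 CPM in WT/WT and at most 341 CPM in the mutant libraries. The B-cell gene Ms4a1, named after its values were seen, was at 0 in all 3 R249C/R249C libraries and between 0.636 and 5.18 CPM in WT/WT. Of 16 thymocyte genes 13 were negative in R249C/R249C and 14 in WT/R249C (medians -0.97 and -0.95), with summed levels of 240 to 382 CPM in WT/WT, 85.0 to 329 CPM in WT/R249C and 142 to 259 CPM in R249C/R249C. Of 12 cortical epithelial genes 11 were positive in each mutant genotype (medians 0.61 and 0.60), with 2712 to 3284, 2823 to 5547 and 2641 to 4309 CPM in the same order. Of 12 myeloid genes 11 and 10 were positive (medians 1.45 and 0.85), with 98.9 to 337, 79.1 to 279 and 102 to 282 CPM. The thymocyte, cortical and myeloid sums overlapped between the genotypes. The mean myeloid sum was 235 CPM in WT/WT, 195 CPM in WT/R249C and 189 CPM in R249C/R249C, so its order differs from the mostly positive fitted signs. Among 12 mature medullary genes 9 were positive in R249C/R249C and 8 in WT/R249C (medians 0.54 and 0.17). Fibroblast genes were positive for 7 and 1 of 10 (medians 0.16 and -0.90). Endothelial genes were positive for 4 and 7 of 8, and erythroid genes for 1 and 1 of 7. None of these genes was called by edgeR, beside 0.0% of all 29569 genes. The share of positive changes over all genes was 49.1% in R249C/R249C and 51.5% in WT/R249C. At an edgeR unadjusted p under 0.05 in R249C/R249C there were 3 B-lineage, 2 thymocyte, 4 cortical and 1 myeloid genes, beside 3.45% of all genes. In WT/R249C there were 2, 2, 4 and 2 in the same order, beside 3.36%. The part of any of these cells in the levels of Apoh and Fga was not tested.

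The second comparison set WT/R249C against WT/WT in the same fit, so it shares the WT/WT libraries with the first. None of 27 liver genes tested was called, beside 0.0% of all 29569 genes; at an unadjusted p under 0.05 there were 0 liver genes beside 3.36% of all genes. DESeq2 called 0 liver genes beside 1.16% of all genes (0.558% lower), and limma voom called 0. The fitted change was positive for 17 of 27 liver genes (51.5% of all genes), with a median of 0.48, also with Apob and Serpina3k at their bounds, against 0.03 over all genes. It was -0.22 without the batch term (10 of 27 positive), 3.96 in batch A alone and -0.60 in batch B alone, which rests on WT/R249C replicates 4 and 5 with their contradictory labels.

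Apoh was the only 1 of the 30 genes without overlap, lower in WT/R249C (1.73% of all genes were lower and 1.01% higher without overlap). Its log2 fold change was -1.44 (SE 1.11, interval -3.95 to 1.06, edgeR adjusted p = 1), -2.03 in batch A alone, -0.96 in batch B alone and -0.95 without WT/WT replicate 1. In counts pooled over the group, Apob was at least 256-fold higher in WT/R249C, with counts in 3 of 5 libraries (edgeR adjusted p = 1). Of its 995 counts, 726 were in WT/R249C replicate 1, and the libraries at 0 did not differ from WT/WT. Serpina3k was at least 61.2-fold higher in pooled counts, with counts in 2 of 5 (edgeR adjusted p = 1). The darcin gene Mup20 had a log2 fold change of 4.03 (SE 3.22, edgeR adjusted p = 1) and was found in 4 of 5 WT/R249C libraries and 1 of 3 WT/WT libraries.

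The third comparison took the 3 R249C/R249C and the 3 WT/R249C libraries of batch A, none with a contradictory label. Of the 30 liver genes 21 passed the filter, 0 were called beside 0.0% of 23695 genes, and 0 had an unadjusted p under 0.05 beside 1.08% of all genes. DESeq2 and limma voom called 0 liver genes, beside 0.131% of all genes in DESeq2 (0.0886% lower). The change was positive for 9 of 21 (50.8% of all genes), with a median of -0.06 against 0.01 over all genes. Without WT/R249C replicate 3, 25 liver genes passed the filter, 0 were called and the median was -0.53. None of the 30 genes separated the 2 groups without overlap, against 3.45% of all genes higher and 5.41% lower.

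The smallest unadjusted p-values there belonged to Apoa1 (log2 fold change -0.97, SE 0.81), F2 (-1.23, SE 1.04), Mup1 (1.03, SE 1.08) and Foxa3 (-2.47, SE 2.71), each with an edgeR adjusted p of 1.00. Without WT/R249C replicate 3 the log2 fold change of F2 was -0.75 and that of Foxa3 -3.06. All 4 intervals covered 0 and were wide; that of Apoa1, the narrowest of the 4, ran from -2.94 to 0.99. Fga, which did not pass the filter here, was at 0 in R249C/R249C and at 0.760, 0 and 13.1 CPM in WT/R249C.

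Further genes of the same programme were read in the same fit. Since edgeR called 0.0% of all 29569 genes, the lack of calls among them is not particular to the programme. Over all genes, 49.1% of fitted changes were positive in R249C/R249C and 51.5% in WT/R249C. The splits below come from the fit with the batch term, and their dependence on it was not tested. Of 77 further hepatocyte genes 66 were tested in the comparisons with WT/WT: 38 were positive and 28 negative in R249C/R249C (median 0.18), and likewise 38 and 28 in WT/R249C (median 0.19), with 0 called in each. The iron carrier Trf, the urea cycle enzyme Asl and the tyrosine enzyme Fah were among the 15 of this list found in all 11 libraries. Of 19 further regulators tested, 8 were positive and 11 negative in R249C/R249C (median -0.44), and 10 and 9 in WT/R249C (median 0.03), with 0 called. Cebpb, the C/EBP factor of the acute-phase response, was at 87.6, 61.1 and 56.6 CPM in WT/WT, 21.6, 11.9, 29.9, 25.2 and 37.4 CPM in WT/R249C, and 49.3, 33.5 and 8.48 CPM in R249C/R249C. Its WT/WT values were the 3 highest of the 11. Over all genes tested, 4.4% were lower than WT/WT without overlap in R249C/R249C and 1.73% in WT/R249C. The log2 fold change of Cebpb was -1.44 in WT/R249C against WT/WT (edgeR adjusted p = 1).

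Genes of small-intestinal enterocytes, which share apolipoproteins and HNF4 factors with liver, were set beside them. Of 30 enterocyte genes tested, 19 were positive and 11 negative in R249C/R249C (median 0.40), and 17 and 13 in WT/R249C (median 0.07). None was called, beside 0.0% of all genes, and 49.1% and 51.5% of all genes were positive. Apoa4, a chylomicron apolipoprotein in the same gene cluster as Apoa1, was found in all 11 libraries at 10.1 to 72.3 CPM, including WT/WT replicate 1 (16.2 CPM), where Apoa1 was at 0. The intestinal homeobox gene Cdx1 (73.3 to 588 CPM) and the antimicrobial lectin gene Reg3g (45.8 to 301 CPM) were found in all 11 libraries too.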

How the data were processed

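RNA-seq was deposited as whole-number counts per gene for 11 libraries, not normalized, in 1 table of the whole series. The tools named in the submitters' processing notes are FastQC, HISAT2 and StringTie, and the build is mm39, with no versions; the counting step, its use of strand and the annotation release are not given in the sources used here. Only the batch A columns have trimmed in their names; whether reads of batch B were trimmed is not given. GENCODE names of a GRCm38 annotation gave a symbol to 52073 of 56691 genes, which held at least 99.66% of the counts of each library.

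CPM is the count divided by the library's total and scaled to a common total; it is not divided by gene length and was compared only for the same gene between libraries. Differences were tested in R 4.3.3 with edgeR 4.0.16 (robust quasi-likelihood test, TMM scaling, filterByExpr). Tests were two-sided, with p adjusted by Benjamini-Hochberg over all genes tested, a threshold of 0.05 and intervals at 95%. Both mutant genotypes were compared with WT/WT in 1 model of the 11 libraries that includes batch, so R249C/R249C, which is in batch A alone, is set against WT/WT across batches through that term. The mutant genotypes were compared with each other in the 6 of these libraries that are in batch A. DESeq2 1.42.0 and limma 3.58.1 (voom) were run as alternatives, beside other scalings, filters, a replicate block, batch and label settings and leaving out each library. The fit was tested on simulated data. A fold against a group at 0 is a lower bound on pooled levels that covers counting error only, not the spread between libraries. It sets the counts of the other group, pooled over its libraries, against 3 counts over the group at 0. It does not hold for each library.

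The 30 genes and the lists set beside them were chosen with earlier results of these data known. All 30 may be named; a fitted change is printed for the 4 of smallest unadjusted p per comparison, and other lists give up to 3 genes of highest mean CPM and up to 2 of smallest unadjusted p per comparison. The shares of 50-base transcript windows found in other genes come from GENCODE transcripts of the GRCm38 annotation and were chosen after the data were seen. Promoters come from RefSeq, build GRCm38.p6, while the counts use mm39; no coordinate was converted. A regulator of the further list and its motif are not reported here.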

Additional observations from a re-analysis of the deposited data

Results flagged for a closer look

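In WT/R249C, the only group of more than 3 libraries, the highest or lowest library stood apart from the other 4 for 6 of the liver genes and sums tested in 32 groups of values, by Dixon's 95% criterion. Chance flags about 1 in 20 groups of continuous values, but a gene found in 1 of 5 libraries meets the criterion by construction, as Ahsg, Mup3 and Mup5 do, so the number flagged cannot be read against that rate. In WT/R249C replicate 4, Ahsg was at 1.5 CPM with the other 4 libraries at 0, Cps1 at 2.64 CPM with the next at 0.684, Hpd at 1.34 CPM with the next at 0.324, and Mup5 at 0.960 CPM with the others at 0. Fga was at 13.1 CPM in WT/R249C replicate 3 with the next at 0.760. Mup3 was at 0.232 CPM in WT/R249C replicate 1 with the others at 0. Replicate 4 is 1 of the 2 libraries whose title and genotype field differ and had counts for 28 of the 30 genes, the most of any library. Replicate 3 had the smallest total of all libraries.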

How the results depend on the processing

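edgeR called 0 genes and 0 liver genes in all 3 comparisons under every scaling, filter, batch, label and leave-one-out setting run, and limma voom, run under the main settings alone, also called 0. DESeq2 called 522 genes (185 higher, 337 lower) in R249C/R249C against WT/WT, 344 in WT/R249C against WT/WT and 31 in R249C/R249C against WT/R249C, with 1 liver gene, Fga, in the first; the cause was not tested. Replicate numbers were not used as pairs in the main fit. Deviations of same-numbered libraries from their group means correlated between -0.15 and 0.198. These deviations include batch, and no differently numbered libraries were set beside them, so they do not decide whether the numbers pair the libraries. With the replicate block 0 genes and 0 liver genes were called, and the medians of the liver genes tested were 2.13, 2.44 and -0.45 in the 3 comparisons. Over all settings these medians ran from -0.69 to 3.86, from -0.60 to 3.96 (the last in batch A alone) and from -0.77 to 0.54, so the direction of the medians was not stable, while no liver gene with a printed change turned sign. The change of Apoh ran from -3.88 to -2.08 in R249C/R249C and from -2.07 to -0.95 in WT/R249C. Group means of the summed level and of the number of genes found moved by less than 1 SD. At these totals a count of 0 still allows a level of 0.0165 to 0.0495 CPM, depending on the library.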
